A study of Mus with 12 samples.

Results

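The subunits of the respiratory chain and of ATP synthase that are encoded in the nucleus were followed across kidneys of wild-type and Apobec1 knockout mice with and without cisplatin. The members were taken by gene symbol from the annotation of the array (symbols beginning with Nduf followed by a, b, c, s or v and a digit, Sdha to Sdhd, Uqcr, Cyc1, Cox4 to Cox8, and Atp5), with 1 probe set for each gene. This gave 85 of the 19505 genes with a name, of which 35 belong to complex I, 4 to complex II, 9 to complex III, 20 to complex IV and 17 to complex V. All 85 matched a mouse gene in RefSeq by their Entrez number. Ndufa4 and Ndufa4l2 were counted with complex IV, where the Ndufa4 protein is now placed, and Cox7a2l, which joins complexes III and IV, was counted there too. The subunits encoded in mitochondrial DNA were not analysed here.

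Oxidative phosphorylation passes electrons from NADH (complex I) and succinate (complex II) through ubiquinone to complex III, over cytochrome c to complex IV and on to oxygen, and ATP synthase (complex V) uses the resulting proton gradient to make ATP. The proximal tubule and the thick ascending limb of the kidney are rich in mitochondria because their salt transport consumes much ATP. Cisplatin is taken up by proximal tubule cells, and damage to their mitochondria is a known part of its toxicity.

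Kidney RNA of 12 male mice aged 6 months on the C57Bl/6j background was hybridised to Clariom S arrays, 1 mouse to an array. Each genotype (WT or KO) had 3 control and 3 AKI arrays, AKI being acute kidney injury. Control mice received saline and AKI mice cisplatin at 15 mg/kg. The labels speak of 3 days of treatment, where the methods describe 1 dose 3 days before the kidneys were taken. KO mice carried a homozygous disruption of Apobec1, an RNA-editing enzyme, in all cells and, by the labels, were raised in house, whereas WT mice were purchased, so genotype and source of the mice cannot be told apart. The study asked how the loss of Apobec1 alters the kidney's response to cisplatin.

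Values are log2 signals of a probe set, and differences are between group means on that log2 scale, with standard errors (SE) from limma. A gene is called changed at an adjusted p under 0.05, the Benjamini-Hochberg value over all 19505 genes, and "rose" and "fell" are used of called genes alone. A signal counts as above background when it exceeds the 95th percentile of 23 control probe sets that match no mouse transcript, a level between 6.15 and 6.52 over the arrays. By this measure 74 subunits were above background on all 12 arrays and 7 on none (Cox4i2, Cox6a2, Cox8b, Cox8c, Ndufa4l2, Ndufa7 and Ndufv3). The highest signal of any subunit was 18.99, below the ceiling of the table at 19.93.

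The median signal of an array was 5.79 to 6.00, and arrays of the same group correlated over all genes with r between 0.962 and 0.993. The arrays carried the markers of the kidney. Unlogged signals of 13 measured proximal tubule genes were summed, and the log2 of this sum was taken. It was 20.46 to 20.53 in WT control and 20.65 to 20.72 in KO control. It stood at 19.71 to 19.94 in WT AKI, where 0 of the 13 were called, and at 16.20 to 19.70 in KO AKI, where 10 fell. Of all genes, 5.34% were called lower in WT and 12.6% in KO. The lowest of these sums was that of KO AKI replicate 2, whose proximal tubule genes had a median of -3.77 relative to the mean of KO AKI replicates 1 and 3 (13 of 13 lower) and whose 5 thick ascending limb genes had one of -2.69. In WT 12 of the 13 proximal tubule genes had a lower mean in AKI, against 45.9% of all genes. For 9 all AKI arrays lay below all controls, against 17.5% of all genes. A fit without KO AKI replicate 2 called 4 of the 13 lower in WT (8.49% of all genes). In KO it called 10 lower and 1 higher (10.1% of all genes lower). All 4 measured markers of the distal convoluted tubule fell in both genotypes (median -4.43 in WT and -5.56 in KO), as did 2 of 6 principal cell markers in WT and 3 in KO. Without KO AKI replicate 2 the principal cell calls were 4 in WT and 3 in KO. The part of these cell types in the subunit signals was not tested. All 6 measured genes of tubule injury rose after cisplatin in both genotypes, where 8.63% of all genes in WT and 15.4% in KO were called higher. In whole kidney RNA, fewer tubule cells and less RNA per cell cannot be told apart.

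Apobec1 itself was above background on all 12 arrays. WT arrays gave 7.18, 6.63 and 7.33 in control and 8.97, 8.56 and 8.38 in AKI. KO arrays gave 7.58, 7.50 and 7.66 in control and 9.75, 7.33 and 8.48 in AKI. The probe set did not fall with the knockout (KO control minus WT control 0.54, adjusted p = 0.946 in limma), and which part of the transcript it reads is not known, so it does not check the genotype. KO control and KO AKI therefore stand for the arrays with those labels.

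After cisplatin, most subunits had lower signals in both genotypes. In WT mice 72 of 85 (84.7%) had a lower mean in AKI than in control, and the median difference over the 85 was -0.36, against 0.06 over all genes and -0.03 over the 8950 genes with a mean above background. The test called 9 subunits lower (10.6%), where 5.34% of all genes and 7.06% of those with a mean above background were called lower. The 3 AKI arrays lay wholly below the 3 control arrays for 49 subunits (57.6%), compared with 17.5% of all genes. Only 2 subunits (2.35%) rose, against 8.63% of all genes, and 30 of 85 (35.3%) had an unadjusted p under 0.05, against 29.8% of all genes.

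The 9 subunits that fell in WT AKI were Ndufb3 and Ndufb5 of complex I, Sdha of complex II, Uqcrc2, Cyc1 and Uqcrfs1 of complex III, Cox7a1 of complex IV, and Atp5pb and Atp5g1 of complex V. Their differences ran from -0.76 for Uqcrfs1 to -1.32 for Cox7a1. The count was 3 without WT control replicate 1 or without WT AKI replicate 1, where 2.77% and 2.85% of all genes were called lower, 5 without WT control replicate 2 or 3 (3.14% and 3.11% of all genes), and 17 without KO AKI replicate 2, where 8.49% of all genes were called lower. The last fit omits no WT array, and its 17 include all 9. The others were Ndufa6, Ndufb4b, Ndufs1, Ndufs7, Ndufs8, Sdhb, Cox7b2 and Atp5c1.

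In KO mice 69 of 85 subunits (81.2%) had a lower mean in AKI than in control, with a median difference of -0.37 against 0.06 over all genes. The test called 23 lower (27.1%), where 12.6% of all genes and 19.4% of those with a mean above background were called lower. Complex I held 12 of them, complex II 2, complex III 3, complex IV 1 and complex V 5. The AKI arrays lay wholly below the control arrays for 28 subunits (32.9%), compared with 18.6% of all genes. Only 2 subunits rose (2.35%), against 15.4% of all genes, and 33 of 85 (38.8%) had an unadjusted p under 0.05, against 39.6% of all genes.

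The count depended on KO AKI replicate 2. Without it 11 subunits were called lower, all among the 23, where 10.1% of all genes were called lower, and the median difference of the 85 was -0.24. Those 11 were Ndufs1, Ndufa9, Ndufs8, Ndufb5, Ndufa1, Sdha, Sdhb, Uqcrc2, Uqcrfs1, Cox7a1 and Atp5pb. Leaving out KO control replicate 1 or KO control replicate 2 gave 12 lower calls each, again all among the 23, where 8.99% and 9.78% of all genes were called lower.

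The calls in the genotypes overlapped. Of the 9 subunits that fell in WT AKI, 7 also fell in KO AKI (77.8% of the 9 and 30.4% of the 23): Ndufb3, Ndufb5, Sdha, Uqcrc2, Uqcrfs1, Cox7a1 and Atp5pb. Cyc1 and Atp5g1 were called in WT alone and 16 subunits in KO alone. Of these 16, Ndufs1, Ndufs8, Sdhb and Atp5c1 were called in WT in the fit without KO AKI replicate 2. A call in 1 genotype alone does not show that the genotypes differ, and limma's interaction test of that difference called 0 of the 85 (5 at an unadjusted p under 0.05).

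**Figure D1:**
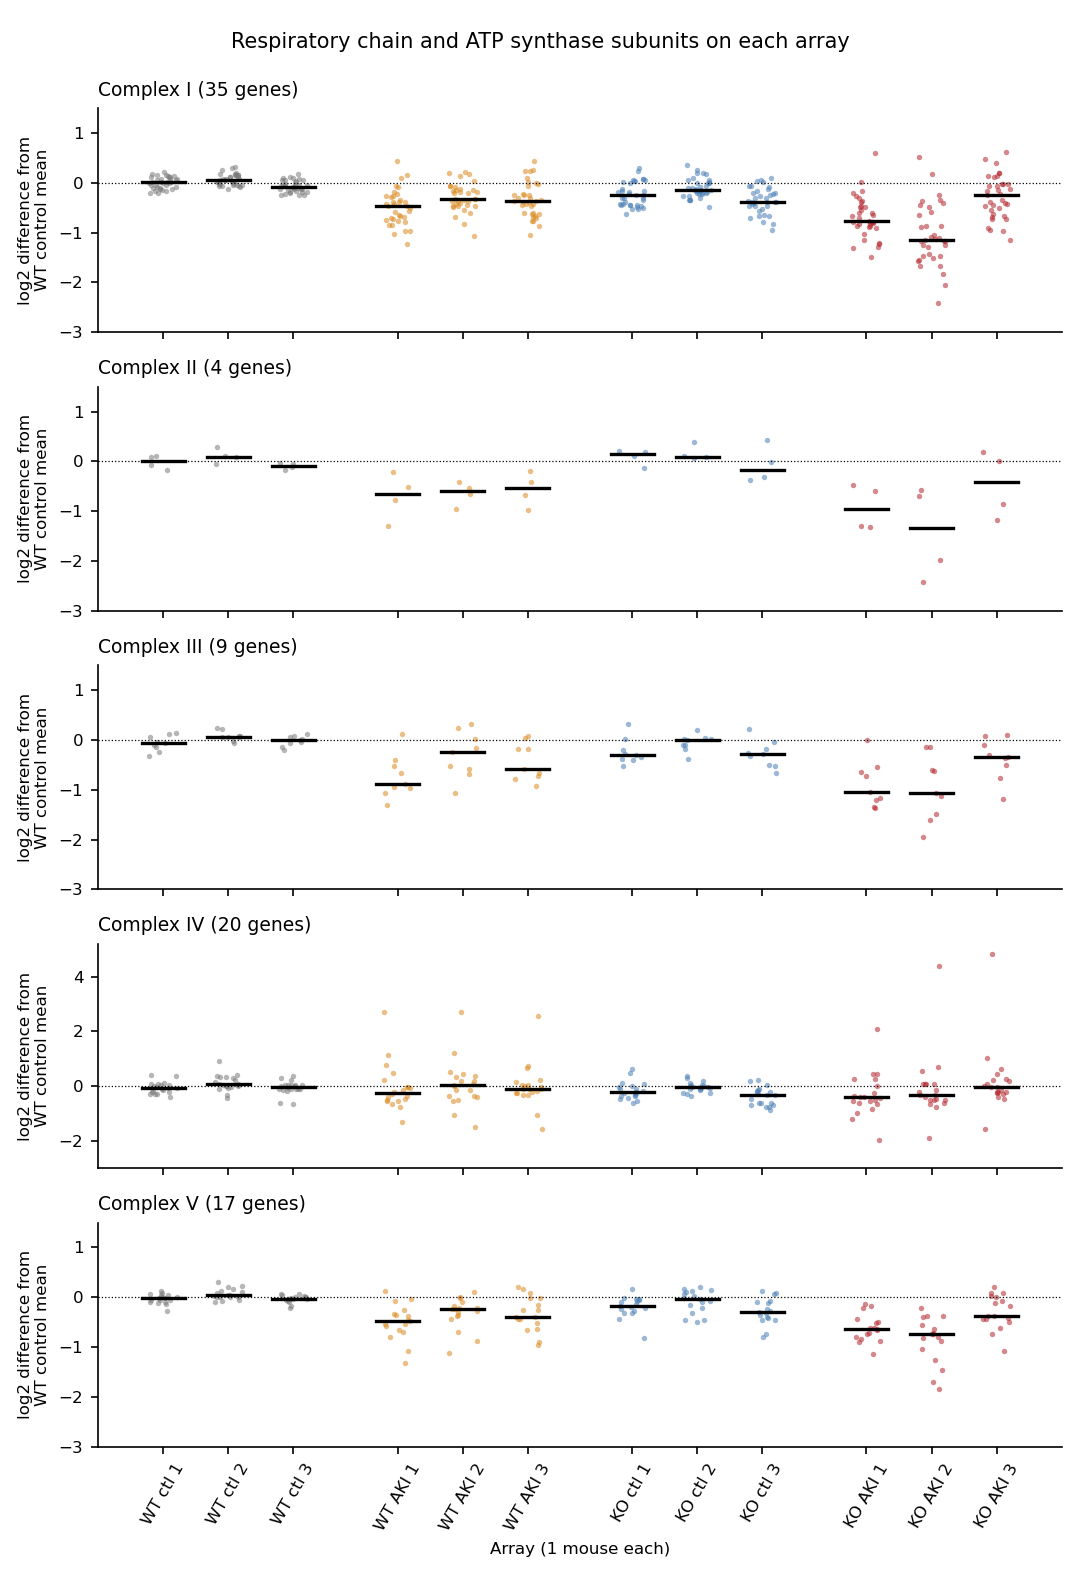
Log2 difference of each subunit from its WT control mean on each of the 12 arrays, in 1 panel for each complex. Points are genes, black bars are medians over the genes of the complex, and the scale of the complex IV panel is wider. The complex I medians of replicates 1 to 3 of AKI were -0.47, -0.32 and -0.37 in WT and -0.76, -1.15 and -0.24 in KO. The high points of complex IV are Cox6b2.

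The array medians over all 85 subunits show how even each group was. Relative to the WT control means, WT arrays had -0.02, 0.06 and -0.04 in control and -0.47, -0.24 and -0.31 in AKI. KO arrays had -0.21, -0.07 and -0.32 in control and -0.64, -0.74 and -0.21 in AKI. Every WT AKI array lay below every WT control array. In KO the groups overlapped, with AKI replicate 3 level with control replicate 1 and above control replicate 3. The median SD over the subunits (n = 3 arrays) was 0.375 in KO AKI, beside 0.207 in KO control, 0.189 in WT AKI and 0.125 in WT control. An SD above 0.5 was seen for 21 subunits in KO AKI and for 2 in each other group.

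The median shift varied by complex. Median differences in WT were -0.42 for complex I, -0.57 for complex II, -0.66 for complex III, -0.08 for complex IV and -0.33 for complex V. The KO medians were -0.43, -0.88, -0.36, -0.05 and -0.45 in the same order, and without KO AKI replicate 2 they were -0.24, -0.66, -0.37, -0.04 and -0.35. Complex IV had the median nearest to 0 in both genotypes, with 13 of 20 members lower in WT and 10 of 20 in KO. Its list holds isoforms that lay within the background, and the 13 members of complex IV with a mean above background had medians of -0.25 in WT and -0.14 in KO, still nearer to 0 than any other complex. No test between complexes was run.

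Complex I oxidises NADH in a matrix arm that carries the flavin and the iron-sulfur clusters, and its membrane arm pumps protons. In WT, 31 of its 35 subunits had lower means after cisplatin, and the accessory subunits of the membrane arm Ndufb3 and Ndufb5 fell. Ndufb3 gave 11.26, 11.08 and 11.28 in WT control and 10.24, 10.15 and 10.17 in WT AKI. These groups stood far apart, at a difference of -1.02 (SE 0.19, adjusted p = 0.00387 in limma), and the call held without each array in turn. In KO the same gene went from 11.02, 11.06 and 10.67 to 10.17, 10.17 and 10.58 (difference -0.61, adjusted p = 0.0272), with the AKI arrays below all controls by a small margin, and this call was lost without KO AKI replicate 1 or 2 or KO control replicate 1 or 2.

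Ndufb5 gave 12.77, 12.59 and 12.62 in WT control and 11.43, 11.83 and 11.89 in WT AKI. The fall was 1.92-fold (difference -0.94, SE 0.23, adjusted p = 0.0157 in limma), and it was no longer called without WT control replicate 1 or WT AKI replicate 1. In KO it fell from 12.21, 12.32 and 12.36 to 11.16, 10.82 and 11.70 (difference -1.07, adjusted p = 0.00374, and -0.87 without KO AKI replicate 2). The groups did not overlap in either genotype.

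Ndufs1, the largest subunit of complex I and a carrier of iron-sulfur clusters, showed the largest fall of the complex in KO AKI. Its signals were 14.03, 13.93 and 13.87 in KO control and 12.71, 11.58 and 12.85 in KO AKI. The difference was -1.56 (SE 0.28, adjusted p = 0.00119 in limma), or 2.95-fold, and -1.16 without KO AKI replicate 2, the lowest array (adjusted p = 0.00071). In WT it gave 14.15, 13.93 and 13.92 in control and 13.15, 13.46 and 13.29 in AKI, which did not overlap either, but the difference of -0.70 was not called (adjusted p = 0.108). It was called in WT in the fit without KO AKI replicate 2 (adjusted p = 0.0127 in limma).

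Ndufa9, an accessory subunit between the matrix arm and the membrane arm, gave 14.05, 14.07 and 14.08 in KO control and 13.02, 12.12 and 13.19 in KO AKI. The control arrays were nearly identical, and the difference was -1.29 (SE 0.25, adjusted p = 0.00211 in limma, -0.96 without KO AKI replicate 2). In WT its signals were 14.38, 14.10 and 14.02 in control and 13.52, 13.70 and 13.80 in AKI, a difference of -0.49 that was not called (adjusted p = 0.206). Ndufs8, a subunit with iron-sulfur clusters, went from 14.61, 14.64 and 14.66 in KO control to 13.70, 13.05 and 13.87 in KO AKI. That is a 2.13-fold fall (difference -1.09, adjusted p = 0.00287), beside a difference of -0.60 in WT with an adjusted p of 0.0851. Without KO AKI replicate 2 the WT difference was called (adjusted p = 0.0298 in limma).

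Ndufv1, the subunit that binds NADH and the flavin, had unlike values in the genotypes. WT signals were 15.31, 15.17 and 15.07 in control and 14.91, 15.31 and 15.42 in AKI, groups that overlapped at a difference of 0.03. KO signals were 15.19, 15.38 and 14.91 in control and 14.54, 14.02 and 14.67 in AKI, a difference of -0.75 (SE 0.22, adjusted p = 0.0232 in limma). That call was lost without KO AKI replicate 2 (-0.56) and without KO control replicate 1 or 2, and the difference between the responses was not called (-0.78, adjusted p = 0.419).

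The other subunits of complex I called in KO AKI were Ndufa1 (-1.05), Ndufa11 (-0.88), Ndufv2 (-0.79), Ndufa10 (-0.71), Ndufc2 (-0.66) and Ndufv3. Without KO AKI replicate 2, Ndufa11, Ndufv2, Ndufa10, Ndufc2 and Ndufv3 were not called. Ndufv3 was above background on 0 arrays, as was Ndufa7, which was called higher, so no size is given for them. Ndufb4 and Ndufb4b are near-identical copies that may share signal, and both had lower means in AKI without a call (-0.42 and -0.70 in WT, -0.43 and -0.51 in KO). Without KO AKI replicate 2 Ndufb4b was called in WT (adjusted p = 0.0133 in limma).

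Complex II links the citric acid cycle to the chain. Sdha, its flavoprotein that oxidises succinate, gave 12.43, 12.26 and 12.25 in WT control and 11.03, 11.35 and 11.35 in WT AKI. It gave 12.43, 12.38 and 12.75 in KO control and 10.996, 9.90 and 11.14 in KO AKI. No AKI array reached a control array in either genotype. The differences were -1.07 in WT (SE 0.28, 2.10-fold lower, adjusted p = 0.0226 in limma) and -1.84 in KO (SE 0.28, 3.58-fold lower, adjusted p = 0.000413), the largest fall among the 85. Without KO AKI replicate 2 the KO difference was -1.45, and the WT call was lost without any 1 of 5 of the 6 WT arrays (adjusted p up to 0.0849).

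Sdhb, the iron-sulfur subunit of complex II, had 15.38, 15.85 and 15.44 in WT control and 15.04, 14.90 and 14.89 in WT AKI. In KO it had 15.42, 15.67 and 15.24 in control and 14.25, 13.57 and 14.71 in AKI. These groups did not overlap, and the fall in KO was 2.41-fold (difference -1.27, SE 0.26, adjusted p = 0.00314 in limma, -0.97 without KO AKI replicate 2), while -0.61 in WT was not called (adjusted p = 0.132). Without the same array the WT difference was called (adjusted p = 0.046 in limma).

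The membrane anchors of complex II, Sdhc and Sdhd, stood closer to their controls. Sdhc signals in WT were 11.03, 11.05 and 10.78 in control and 10.75, 10.42 and 10.76 in AKI, and in KO 11.13, 11.34 and 10.57 in control and 10.36, 10.27 and 10.96 in AKI. Sdhd signals in WT were 13.22, 13.40 and 13.27 in control and 12.53, 12.88 and 12.89 in AKI, and in KO 13.50, 13.38 and 13.28 in control and 12.82, 12.73 and 13.48 in AKI. The WT groups were separate and the KO groups overlapped for both genes. For Sdhc the differences were -0.31 in WT (adjusted p = 0.423) and -0.49 in KO (adjusted p = 0.155), and for Sdhd they were -0.53 (adjusted p = 0.12) and -0.38 (adjusted p = 0.217).

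Complex III passes electrons from ubiquinol to cytochrome c. Uqcrc2, a core protein of the matrix side, gave 12.73, 12.94 and 12.97 in WT control and 11.91, 11.83 and 11.96 in WT AKI. KO arrays gave 13.21, 12.78 and 13.11 in control and 11.83, 10.93 and 11.69 in AKI. The gap between AKI and control was wide in both genotypes. It amounted to -0.98 in WT (SE 0.23, adjusted p = 0.0143 in limma) and to -1.55 in KO (SE 0.23, 2.92-fold, adjusted p = 0.000391, -1.27 without KO AKI replicate 2). The WT call was lost without WT control replicate 3 (adjusted p = 0.0511).

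Uqcrfs1, the Rieske iron-sulfur protein, gave 13.63, 13.55 and 13.30 in WT control and 12.54, 12.91 and 12.76 in WT AKI, a difference of -0.76 (adjusted p = 0.0393). In KO it gave 13.30, 13.54 and 13.30 in control and 12.32, 11.89 and 12.74 in AKI, a 2.09-fold fall (difference -1.06, SE 0.22, adjusted p = 0.00361 in limma). The groups were separate in both genotypes, but the WT call was lost without any 1 of the 6 WT arrays or without KO control replicate 1 or 3 (adjusted p up to 0.132).

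Cyc1, cytochrome c1, went from 11.28, 11.39 and 11.27 in WT control to 10.25, 10.63 and 10.54 in WT AKI. The difference was -0.84 (SE 0.25, adjusted p = 0.0382 in limma), and the call was lost without any 1 of the 6 WT arrays or without KO control replicate 1 (adjusted p up to 0.13). Its KO groups overlapped, with 10.93, 11.21 and 10.65 in control and 10.11, 10.19 and 11.01 in AKI (difference -0.49, adjusted p = 0.153). Uqcrc1, the other core protein, was called in KO (-0.89, adjusted p = 0.029, not called without KO AKI replicate 2) and not in WT (-0.66, adjusted p = 0.13). The small subunits Uqcrb, Uqcrh, Uqcrq, Uqcr10 and Uqcr11 were called in neither genotype, with differences from -0.74 to 0.14 in WT and from -0.36 to -0.01 in KO.

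ATP synthase joins a catalytic head to a membrane ring of c subunits by a central and a peripheral stalk. Atp5pb, the b subunit of the peripheral stalk, gave 15.30, 15.10 and 15.14 in WT control and 13.86, 14.30 and 14.22 in WT AKI. In KO it gave 15.10, 15.03 and 15.23 in control and 14.54, 13.48 and 14.10 in AKI. No AKI array reached a control array. The difference was -1.05 in WT (SE 0.24, adjusted p = 0.013 in limma) and -1.08 in KO (SE 0.24, adjusted p = 0.00542, and -0.80 without KO AKI replicate 2). The interaction was -0.03 (SE 0.34, adjusted p = 0.985). The WT call was lost without WT control replicate 1 or WT AKI replicate 1.

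Atp5g1, Atp5g2 and Atp5g3 encode the same mature c subunit. Atp5g1 went from 14.78, 14.85 and 14.86 in WT control to 13.76, 13.72 and 13.93 in WT AKI, tight groups with a difference of -1.03 (SE 0.26, adjusted p = 0.0215 in limma). The call was lost without any 1 of 5 of the 6 WT arrays (adjusted p up to 0.0665). KO arrays gave 14.40, 14.37 and 14.42 in control and 13.69, 13.00 and 14.34 in AKI, a difference of -0.72 that was not called (adjusted p = 0.0568). Atp5g3 fell in KO (-0.62, adjusted p = 0.0449) and was not called in WT (-0.43), and Atp5g2 was called in neither (-0.37 and -0.14). The call of Atp5g3 was lost without KO AKI replicate 2.

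The catalytic head showed smaller differences. Atp5b, the catalytic beta subunit, gave in WT 18.56, 18.63 and 18.54 in control and 18.24, 18.35 and 18.18 in AKI, and in KO 18.53, 18.49 and 18.16 in control and 17.95, 17.76 and 17.96 in AKI. It was lower on every AKI array than on the controls of the same genotype, with differences of -0.32 in WT (adjusted p = 0.239) and -0.50 in KO (adjusted p = 0.0466, lost without any 1 of 11 of the 12 arrays). Atp5c1, the gamma subunit of the central stalk, was called in KO (-0.74, adjusted p = 0.0237, not called without KO AKI replicate 2) and stood at -0.68 in WT (adjusted p = 0.0565). Without the same array it was called in WT (adjusted p = 0.0153 in limma). Atp5j, a subunit of the peripheral stalk, was also called in KO (-0.58, adjusted p = 0.0253, not called without KO AKI replicate 2). Atp5a1, the alpha subunit, differed by 0.03 in WT and by -0.28 in KO and was called in neither.

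Complex IV reduces oxygen, and several of its subunits exist as isoforms of different tissues. The widespread isoforms were not called in either genotype. Cox4i1 gave in WT 14.12, 14.47 and 14.12 in control and 13.95, 14.42 and 14.29 in AKI, and in KO 13.81, 14.34 and 13.46 in control and 13.72, 13.92 and 14.19 in AKI. These groups overlapped, with differences of -0.02 and 0.08. Cox6a1 (-0.47 and 0.04), Cox6b1 (-0.41 and -0.14), Cox7a2 (-0.11 and 0.06), Cox8a (-0.25 and 0.01) and Ndufa4 (-0.16 and -0.38) had the differences in parentheses in WT and KO, with standard errors of 0.19 to 0.26, and the lowest adjusted p among them was 0.161. Cox7c, with 18.70, 18.66 and 18.71 in WT control and 18.89, 18.88 and 18.91 in WT AKI, was higher on every AKI array in both genotypes by 0.21 and 0.22, and was called in neither (adjusted p = 0.414 and 0.341).

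Cox7a1, the isoform of heart and skeletal muscle, was the subunit of complex IV that fell. Its WT signals were 8.05, 8.74 and 8.21 in control and 7.002, 7.27 and 6.75 in AKI, and its KO signals were 7.77, 7.97 and 7.45 in control and 6.35, 6.42 and 6.77 in AKI. No AKI array reached a control array, and 2 of the 3 KO AKI arrays were above background. The differences were -1.32 in WT (SE 0.24, 2.50-fold, adjusted p = 0.00312 in limma) and -1.22 in KO (SE 0.24, 2.33-fold, adjusted p = 0.00215), and both calls held without each array in turn. Striated muscle markers (6 genes, 3 above background on 0 arrays) had a log2 of summed unlogged signals between 7.76 and 8.10 in all groups. In WT AKI 2 of these 6 were called higher and 1 lower, and in KO AKI 1 was called higher. Of all genes, 8.63% were called higher and 5.34% lower in WT, and 15.4% higher in KO. For fat markers (4 measured, 2 above background on 0 arrays) the same sum in WT was 7.65 to 9.20 in control and 5.81 to 7.26 in AKI. In KO it was 6.02 to 7.44 in control and 5.80 to 6.44 in AKI. Their part in the fall of Cox7a1 was not tested.

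Cox6b2, an isoform known from testis, rose in both genotypes. It gave 4.89, 4.33 and 5.06 in WT control and 4.15, 4.46 and 4.95 in KO control, all within the background. After cisplatin it was above background on all 6 arrays, with 7.46, 7.46 and 7.31 in WT AKI and 6.84, 9.17 and 9.59 in KO AKI. Against the background of the control arrays the rise was at least 2.26-fold in WT (adjusted p = 0.00535 in limma) and at least 4.53-fold in KO (adjusted p = 0.000132), and both calls held without each array in turn. The widespread isoform Cox6b1 was above background on all 12 arrays and was not called.

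Cox4i2, Cox6a2, Cox8b, Cox8c and Ndufa4l2 stayed within the background. Cox4i2 gave 3.98, 4.20 and 4.40 in WT control and 5.34, 5.42 and 4.92 in WT AKI. The WT AKI arrays were the higher (adjusted p = 0.0102 in limma), but 0 arrays of either group were above background, so no size is given. The other four were called in neither genotype. Cox7b2 was above background on 1 array, with 5.15, 6.34 and 4.81 in WT control and 4.66, 3.93 and 4.38 in WT AKI (adjusted p = 0.0528), and was called in neither genotype. Without KO AKI replicate 2 it was called lower in WT (adjusted p = 0.0349 in limma).

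**Figure D2:**
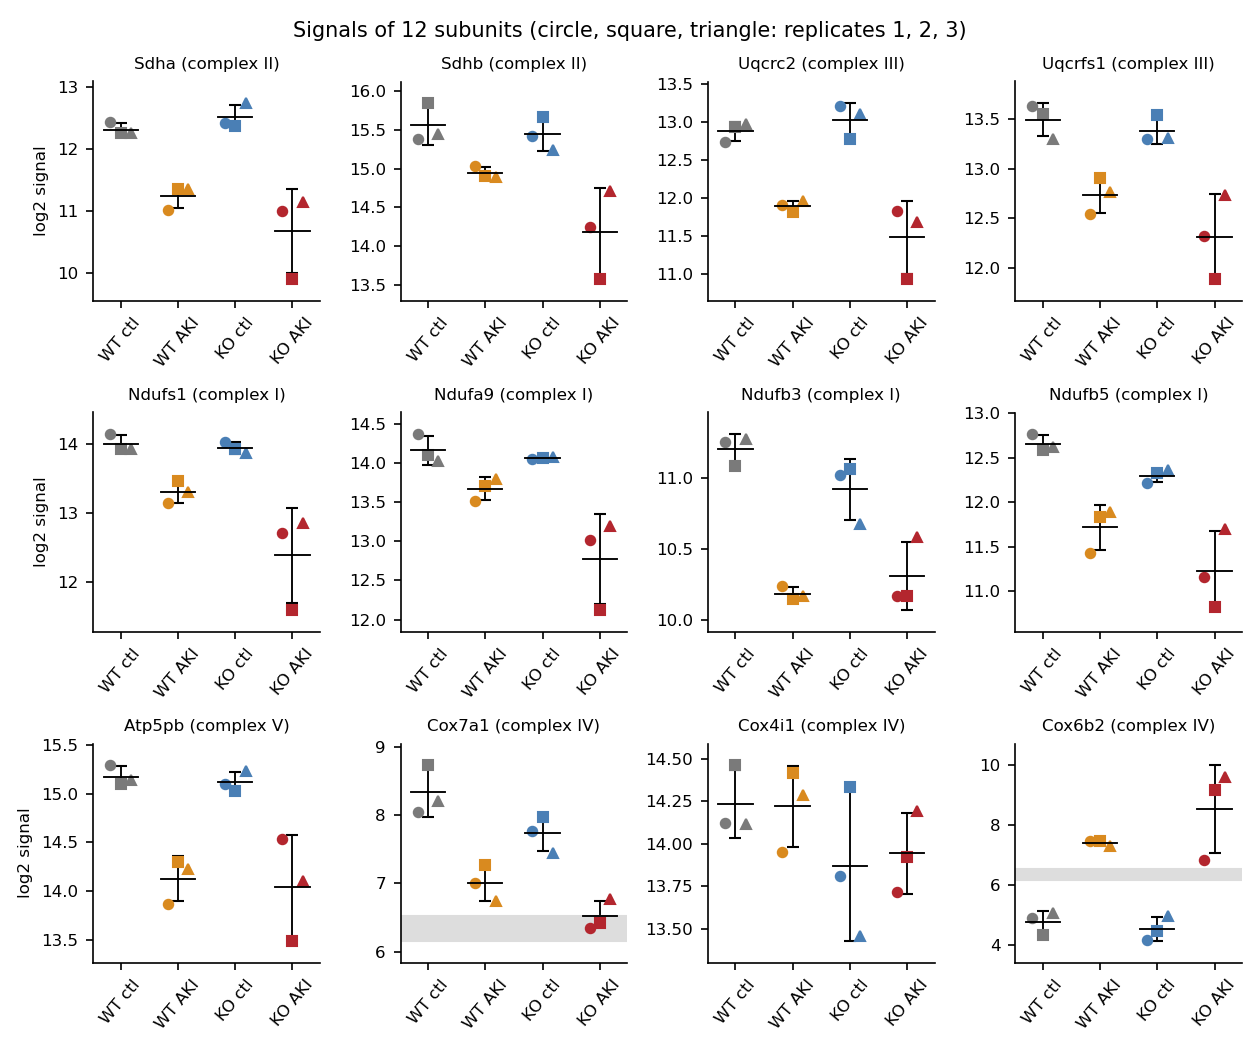
Log2 signals of 12 subunits in the 4 groups, with circles, squares and triangles for replicates 1, 2 and 3 and bars for the mean ± SD (n = 3). The grey band in the panels of Cox7a1 and Cox6b2 spans the background, 6.15 to 6.52. Sdha, Uqcrc2 and Ndufb3 were lower on every AKI array than on the controls of the same genotype, Cox4i1 overlapped, and Cox6b2 left the background after cisplatin alone. The square of KO AKI is the lowest point for Sdha, Sdhb, Uqcrc2, Uqcrfs1, Ndufs1, Ndufa9, Ndufb5 and Atp5pb.

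KO AKI replicate 2 differed by complex as well. Compared with the mean of KO AKI replicates 1 and 3 it was lower for 73 of 85 subunits, with a median of -0.38. For complex I the median was -0.58 (34 of 35 lower), for complex II -0.67, for complex III -0.38 and for complex V -0.31, whereas complex IV stood at -0.04 (12 of 20 lower). Ndufs7 (-1.31), Ndufs1 (-1.20), Sdha (-1.17) and Ndufv2 (-1.02) were among the lowest. Relative to the same 2 arrays the 57 cytosolic ribosomal protein genes had a median of 0.47 (54 higher, 3 lower). The 4 measured neutrophil markers had a median of 2.74 (3 higher, 1 lower), and 0 of the 4 were above background on all 12 arrays. All 6 measured macrophage markers were lower (median -1.19), as were all 6 principal cell markers. The part of these in the low subunit signals was not tested.

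Without cisplatin, no subunit passed the test between genotypes, although most had a lower mean in KO. KO control was below WT control for 73 of 85 subunits (85.9%), with a median of -0.21 against -0.00 over all genes. In limma 0 of the 85 were called (0.0513% of all genes were called in either direction), 2 had an unadjusted p under 0.05 (Cox7a1 and Ndufb2, 2.35% against 6.17% of all genes), and the methods' t-test after Benjamini-Hochberg also called 0. The 3 KO control arrays lay wholly below the 3 WT control arrays for 22 subunits (25.9%), compared with 7.37% of all genes, and above them for 1, Atp5h.

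The largest of these differences was that of Cox7a1, with signals of 8.05, 8.74 and 8.21 in WT control and 7.77, 7.97 and 7.45 in KO control (-0.60, SE 0.24, adjusted p = 0.748). Ndufb11 gave 10.77, 11.04 and 10.98 in WT control and 10.48, 10.67 and 10.53 in KO control (-0.37, adjusted p = 0.841). Atp5g1 gave 14.78, 14.85 and 14.86 against 14.40, 14.37 and 14.42 (-0.43, adjusted p = 0.894). Each of these pairs of groups was separate. The limma test takes its SE from the spread within all 4 groups, not from the control groups alone. For Atp5g1 the SD was 0.045 in WT control and 0.026 in KO control, beside 0.11 in WT AKI and 0.67 in KO AKI. By complex the medians were -0.28, 0.08, -0.22, -0.20 and -0.18 for complexes I to V, and in complex II 3 of 4 subunits had a higher mean in KO control. The 6 endothelial markers were higher in KO control (6 of 6, median 0.99, 0 called). Of these, 5 had an unadjusted p under 0.05 in limma, against 6.17% of all genes. The 4 podocyte markers were also higher (4 of 4, median 0.265, 0 called). The 4 fat markers (4 of 4, median -1.34, 0 called) and the 4 neutrophil markers (4 of 4, median -0.57, 0 called) were lower. Of the 6 macrophage markers 5 were lower (median -0.30, 0 called). Their part in the subunit shift was not tested.

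After cisplatin, KO AKI was below WT AKI for 72 of 85 subunits (84.7%), with a median of -0.20, and -0.12 (56 of 85) without KO AKI replicate 2. In limma 0 were called (0.487% of all genes in either direction), while 13 (15.3%) had an unadjusted p under 0.05, the same share as of all genes, and the methods' t-test after Benjamini-Hochberg called 0. The KO AKI arrays lay wholly below the WT AKI arrays for 13 subunits (15.3%), compared with 8.76% of all genes. Complex I supplied 9 of these 13, and the largest differences among subunits above background were those of Ndufs1 (-0.92, adjusted p = 0.133), Ndufa9 (-0.90, adjusted p = 0.111), Ndufv1 (-0.81, adjusted p = 0.111) and Sdhb (-0.77, adjusted p = 0.175). Without KO AKI replicate 2 they were -0.52, -0.57, -0.61 and -0.46 in that order. For Ndufv1 the WT AKI signals of 14.91, 15.31 and 15.42 and the KO AKI signals of 14.54, 14.02 and 14.67 were separate. Leaving out KO AKI replicate 1 gave 3 calls, Ndufa9 (-1.02), Ndufv3 (lower, within the background) and Cox6b2 (1.97, adjusted p = 0.0016). Of all genes, 3.13% were called lower and 2.89% higher in that fit.

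The difference between the cisplatin responses, KO minus WT, had a median of -0.01 over the subunits. The interaction test in limma called 0 of 85 (0.0308% of all genes in either direction), and 5 subunits (5.88%) had an unadjusted p under 0.05, against 10.4% of all genes. These 5 were Ndufs1 (-0.86), Ndufa9 (-0.80), Ndufv1 (-0.78), Ndufv3 and Ndufa7, all of complex I, and Ndufv3 and Ndufa7 lay within the background. Without KO AKI replicate 2 the differences of Ndufs1, Ndufa9 and Ndufv1 were -0.46, -0.47 and -0.59, 3 subunits had an unadjusted p under 0.05 and the median was 0.08. Sdha had a difference of -0.76 (SE 0.39, adjusted p = 0.528) and Uqcrc2 one of -0.56 (SE 0.33, adjusted p = 0.584), and without the same array these were -0.375 and -0.29. Cox6b2, within the background in both control groups, had a fitted difference of 1.37 (SE 0.74, adjusted p = 0.546). Without KO AKI replicate 1 it was called (2.21, adjusted p = 0.0109), where 0.866% of all genes were called higher. The comparisons share arrays, so their values are not independent of each other.

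**Figure D3:**
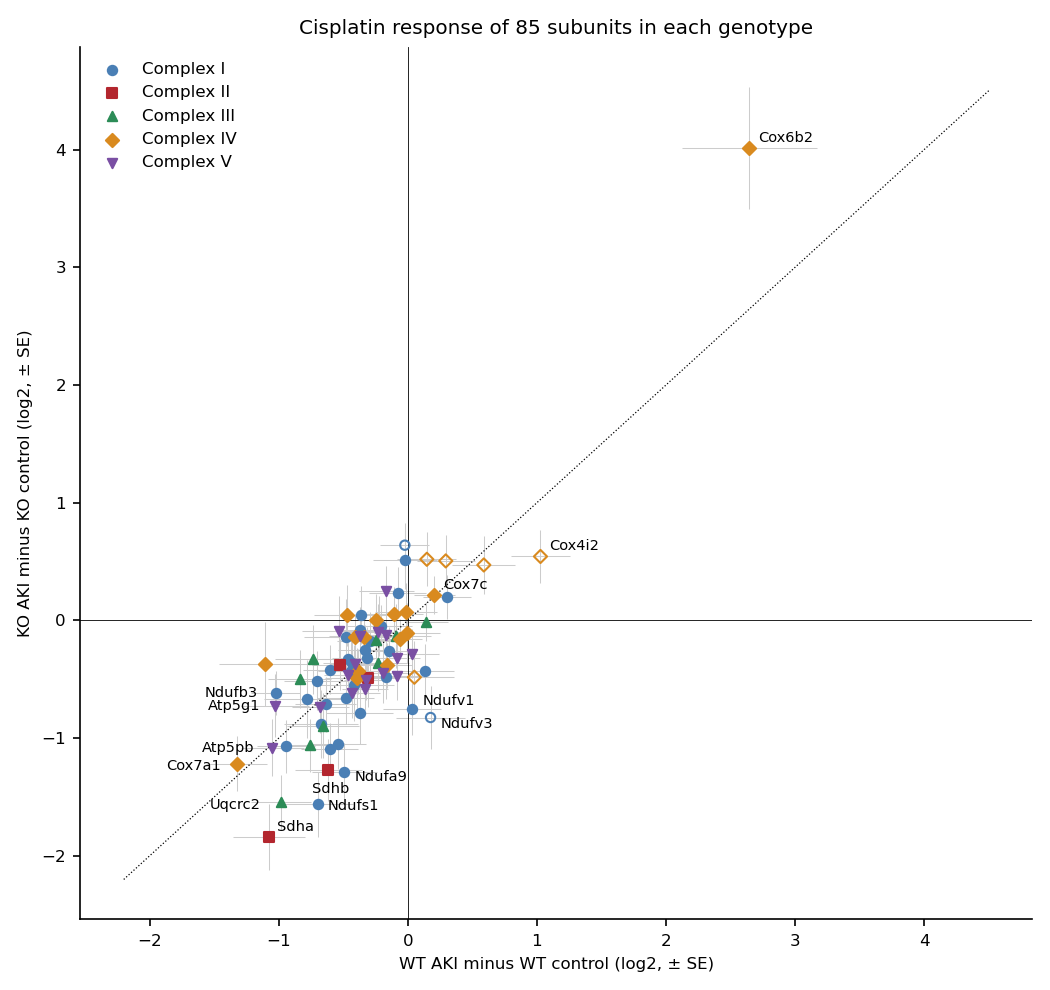
Cisplatin response of each of the 85 subunits in WT (x axis) and KO (y axis), as log2 differences with standard errors, with symbols by complex and open symbols for genes above background on 0 arrays. The dotted line marks equal responses. Most points lie at the lower left around a WT median of -0.36 and a KO median of -0.37. Sdha, Ndufs1, Ndufa9 and Ndufv1 lie below the line and Cox6b2 stands apart at fitted values of 2.65 and 4.01.

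Genes that work with the chain were read in the same way, and their calls stand beside the 5.34% of all genes called lower in WT and 12.6% in KO, or 7.06% and 19.4% of the genes with a mean above background. Without KO AKI replicate 2, 8.49% of all genes were called lower in WT and 10.1% in KO. The citric acid cycle, which supplies NADH and succinate, had 3 of 13 measured genes called lower in WT AKI (Mdh2 -0.95, Dlst -0.94 and Idh3b -0.74, list median -0.56) and 0 higher. In KO AKI 8 fell and 0 rose, at a median of -0.92 (-0.61 with 8 lower calls without KO AKI replicate 2). The fit without that array called 6 lower in WT. Idh2, the NADP-dependent isocitrate dehydrogenase of mitochondria, gave 15.60, 16.01 and 15.04 in KO control and 13.49, 11.02 and 13.69 in KO AKI, a difference of -2.82 (adjusted p = 0.0016 in limma), followed by Ogdh (-1.13) and Dld (-1.11). For Idh2 the second KO AKI array was far below the other two. Without it the differences were -1.96 for Idh2 (adjusted p = 9.94e-05), -0.81 for Ogdh and -0.85 for Dld, all still called.

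Assembly factors build the complexes and are not part of them. Of 42 measured, 7 fell in WT AKI and 15 in KO AKI, with 0 higher in both and list medians of -0.32 and -0.36 (11 lower calls and a median of -0.24 in KO without KO AKI replicate 2). Without that array 10 were called lower in WT. Cox15, which makes the heme of complex IV, gave in WT 10.32, 10.13 and 10.41 in control and 8.86, 9.08 and 8.90 in AKI, and in KO 10.28, 9.85 and 9.76 in control and 8.50, 7.67 and 8.84 in AKI. It fell in both genotypes (-1.34, adjusted p = 0.00564, and -1.63, adjusted p = 0.000701, limma, with -1.29 in KO without KO AKI replicate 2) although few subunits of complex IV did. Uqcc1 (-1.23) and Ndufaf6 (-1.08) followed in WT, and Ndufaf1 (-1.28) and Foxred1, factors of complex I, in KO, where Foxred1 reached the background.

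Among 16 measured regulators of mitochondrial biogenesis, 4 fell in WT AKI (list median -0.36) and 7 fell and 1 rose in KO AKI (list median -0.38, 5 lower and 1 higher without KO AKI replicate 2). Without the same array 6 were called lower in WT. Ppargc1a, the coactivator that drives expression of respiratory genes, gave 15.07, 15.36 and 14.94 in WT control and 13.12, 13.80 and 13.47 in WT AKI. KO signals were 15.30, 15.09 and 15.03 in control and 13.65, 11.16 and 13.29 in AKI. All AKI arrays lay below all control arrays, with differences of -1.66 (adjusted p = 0.0324 in limma) and -2.44 (adjusted p = 0.00203). Without KO AKI replicate 2, the lowest array, the KO difference was -1.67 (adjusted p = 0.000175), close to that in WT. Tfb1m, a methyltransferase for the ribosomal RNA of mitochondria, fell in WT (-0.88) and, to within the background, in KO. Esrrg, a nuclear receptor that acts with Ppargc1a, fell in both (-0.84 and -1.29). The regulators Nrf1 (0.06 and -0.26) and Tfam (-0.29 and -0.28) were called in neither genotype.

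Gabpb1, a subunit of the factor NRF-2 that binds promoters of respiratory genes, was the regulator that rose in KO AKI. It gave in WT 8.05, 7.69 and 7.62 in control and 7.53, 7.51 and 7.29 in AKI, and in KO 7.87, 7.72 and 8.08 in control and 8.93, 8.71 and 8.38 in AKI. The KO AKI arrays were above all 9 others. The rise from KO control was 0.78 (adjusted p = 0.0125 in limma) and the difference of KO AKI from WT AKI was 1.23 (adjusted p = 0.0218).

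Carriers of electrons and of ADP, ATP and phosphate, 17 measured, had 2 lower calls in WT AKI (Coq5 -1.20 and Etfdh -0.73, list median -0.28) and 4 in KO AKI (list median -0.48), with 0 higher. Without KO AKI replicate 2 the KO list had 4 lower calls and a median of -0.37, and the WT list had 5 lower calls. Coq8a, a factor of ubiquinone synthesis, showed the largest fall, from 13.72, 13.52 and 13.25 in KO control to 10.38, 8.81 and 11.01 in KO AKI (-3.43, adjusted p = 6.05e-05 in limma, and -2.80 without KO AKI replicate 2). In WT it was not called (adjusted p = 0.116). In the fit without KO AKI replicate 2 the WT difference of Coq8a, -0.996, was called (adjusted p = 0.00523 in limma). Cytochrome c, Cycs, was called in neither genotype (-0.46 and 0.12).

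Ribosomal proteins were read for comparison. Of 76 mitochondrial ribosomal proteins, 5 fell and 2 rose in WT AKI (median -0.17) and 14 fell and 5 rose in KO AKI (median -0.24), among the latter Mrpl33 (2.15) and Mrps18b (1.79). Of the genes with a mean above background 7.06% in WT and 19.4% in KO were called lower, and without KO AKI replicate 2 the KO list had 10 lower and 3 higher calls and a median of -0.18. In the fit without that array the WT list had 11 lower and 3 higher calls. Of all genes 8.63% in WT and 15.4% in KO were called higher, or 12.2% and 12.7% without that array. Of 57 cytosolic ribosomal proteins, 18 rose in WT AKI (median 0.55) and 50 in KO AKI (median 1.04), and 0 fell. Without KO AKI replicate 2, 27 rose in WT and 43 in KO. The medians of these lists thus had opposite signs.

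**Figure D4:**
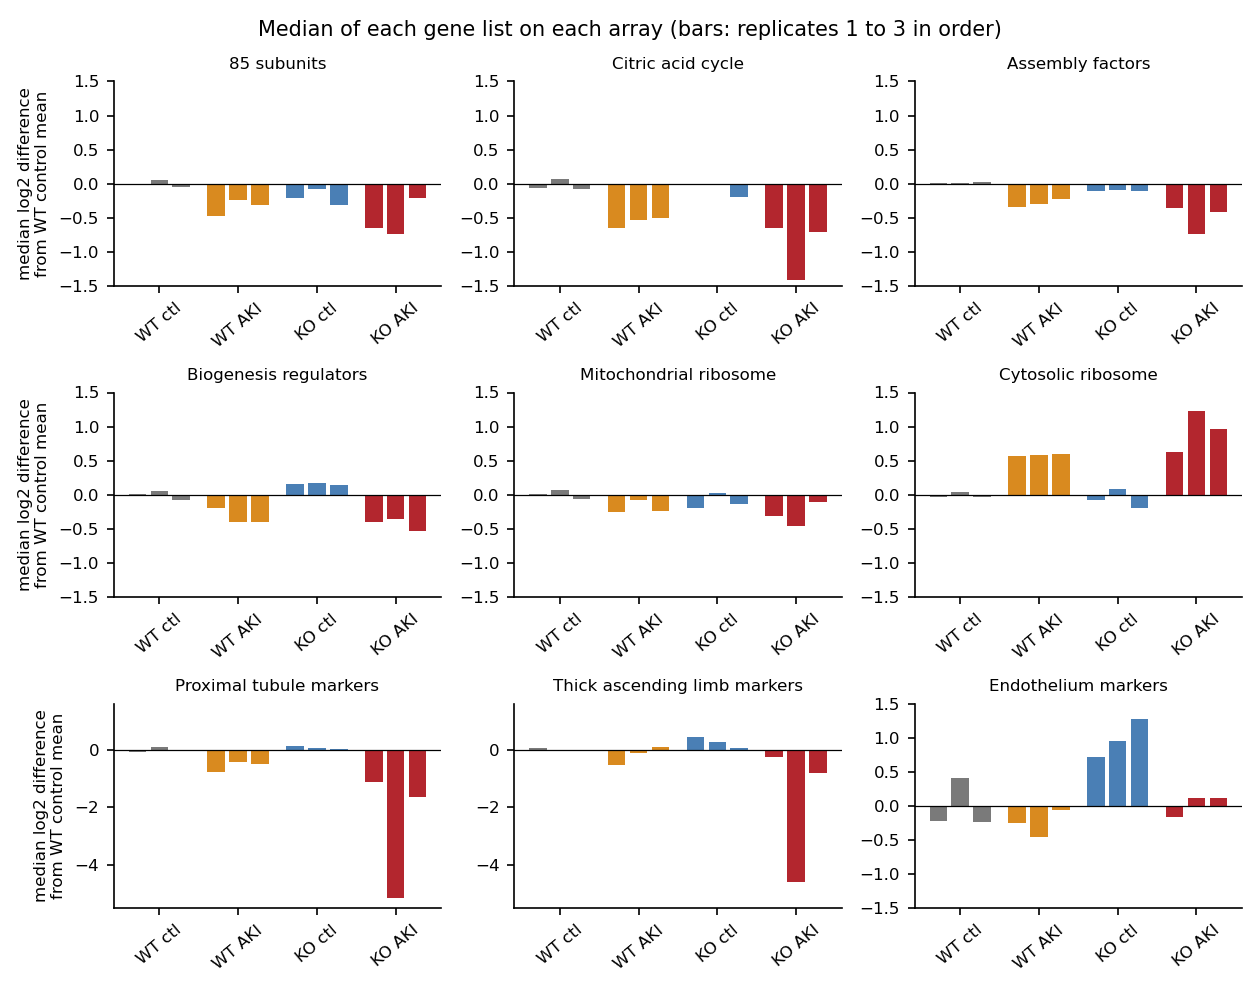
Median log2 difference from the WT control mean for 9 gene lists on each of the 12 arrays, with bars for replicates 1 to 3 in order. The panels of the proximal tubule and thick ascending limb have a wider scale. The second KO AKI bar reaches -5.14 for proximal tubule markers and -1.41 for the citric acid cycle but -0.74 for the 85 subunits, and the cytosolic ribosome runs upwards in AKI, to 1.23 on the same array.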

How the data were processed

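Kidney RNA of 12 mice was measured on Clariom S arrays, with groups taken from the sample labels. The deposited table holds log2 signals, 1 for each array and probe set. The submitters' processing notes name Transcriptome Analysis Console, and its version, background correction and normalization are not given in the sources used here. The values were used without further normalization.

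Of 28846 probe sets, 19572 had 1 gene symbol. For each gene the highest-mean probe set was kept, which left 19505 genes. Symbols were checked against RefSeq (GRCm38.p6). A model of the 4 group means was fitted to all 12 arrays with lmFit and eBayes of limma 3.58.1 in R 4.3.3 (8 residual and 5.6 prior degrees of freedom). The 3 arrays of a group are labelled as separate samples, and an exact permutation test of 3 against 3 could not go below p = 0.1, so it was not used. The number of arrays limits the precision. The fit was tested on simulated data that gave a gene the same spread in all groups. That test cannot show how the wider spread of KO AKI affects the calls.

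The members and gene lists were chosen with earlier results of these data known. The text names all subunits of complex II, the 3 largest called falls and up to 2 called rises of each complex in each cisplatin comparison, the tissue isoforms, and up to 3 called genes of each other list. Other names were added after their values were seen. A rise from the background is given as a bound, the group mean against the higher of signal and background on each control array. Alternatives were a background filter, quantile normalization, median centring, array weights, a replicate block, another probe set, only the groups compared, the methods' t-test (unpaired, from the study's general statistics section and not stated for the arrays) and leaving out each array. Replicate numbers did not pair the arrays.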

Additional observations from a re-analysis of the deposited data

How the results depend on the processing

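Lower calls in WT AKI, 9 in the main analysis, became 16 with median centring and 17 with array weights (8.87% and 8.9% of all genes). A fit of only the groups compared gave 18 (8.5% of all genes). The methods' t-test at an unadjusted p under 0.05 gave 41 (13.1% of all genes). Leaving out 1 array gave 3 to 17 (2.77% to 8.49% of all genes). The 23 lower calls in KO AKI became 15 with array weights and 11 with only the groups compared (12.3% and 7.96% of all genes). By the methods' t-test they became 0 after Benjamini-Hochberg and 19 at an unadjusted p under 0.05 (1.35% and 12.7% of all genes). With 1 array left out there were 11 to 30, the highest without KO AKI replicate 3, where 11.5% of all genes were called lower. Rises, 2 in each genotype, became 1 with the background filter in WT, 1 in KO with the filter, quantile normalization, median centring or the t-test after Benjamini-Hochberg, 4 in KO by the unadjusted t-test and 1 to 3 in KO with 1 array left out. With the filter 8.69% of the genes tested were called higher in WT. In KO the shares were 19.9%, 13.6%, 11.7% and 2.04% in the order given, and 16.6% by the unadjusted t-test. Where 0 subunits were called, the unadjusted t-test gave 15 between the control groups and 6 between the AKI groups. It called 4.18% of all genes lower and 4.03% higher between controls, and 3.94% and 4.07% between AKI groups. Leaving out 1 array gave 0 to 3 between the AKI groups and 0 to 1 for the interaction, the highest without KO AKI replicate 1. That fit called 3.13% of all genes lower and 2.89% higher between AKI groups, and 0.861% and 0.866% for the interaction. The t-test and the fit of only the groups compared were not run for the interaction. The cause of these changes was not tested, apart from the fewer arrays or genes in some fits. With 1 array left out the median difference of the subunits ran from -0.38 to -0.31 in WT, -0.54 to -0.24 in KO, -0.25 to -0.13 between controls, -0.38 to -0.12 between AKI groups and -0.17 to 0.08 for the interaction.

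Scaling moved all genes: the all-gene medians of 0.06 in both genotypes became -0.01 and -0.00 under quantile normalization and -0.09 and -0.07 under median centring, and the subunit medians became -0.24 and -0.29, and -0.51 and -0.49. All-gene calls were 1042 lower and 1684 higher in WT and 2449 and 2996 in KO. They became 1265 and 1302, and 2743 and 2658, under quantile normalization, and 1731 and 1097, and 3178 and 2290, under centring. Of 36 single calls with 753 values under other settings, 584 kept the call, 169 lost it and 0 reversed, and 16 calls held without each array in turn. Same-numbered arrays did not deviate together (0 of 12 pairs with a correlation over 0.1, range -0.114 to 0.088, 3 of 12 arrays closest to their own number). A replicate block gave 7 lower calls in WT and 19 in KO (4.54% and 11.9% of all genes). It gave 2 higher calls in each (7.57% and 14.6% of all genes).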
